A study of Mus musculus with 20 samples.

Results

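The genes described here are those for voltage-gated potassium, calcium and sodium channels and their close relatives, 137 of the 24393 genes counted. They were chosen by name alone, as every gene whose symbol starts with Kcn and a family letter with a number, Cacna, Cacnb, Cacng, or Scn with a number. By family they were 40 pore subunits of voltage-gated potassium (Kv) channels, 12 Kv auxiliary subunits, 15 inward rectifiers, 14 two-pore-domain potassium channels and 12 potassium channels opened by intracellular calcium or sodium. A further 10 were calcium channel pores, 4 alpha2delta, 4 beta and 8 gamma calcium channel subunits, 10 sodium channel pores and 4 sodium channel beta subunits. The pattern also took 4 antisense or overlapping RNAs, Kcnd3os, Kcnmb4os1, Kcnmb4os2 and Kcnq1ot1, which encode no channel.

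RNA was counted in 20 libraries from mouse hindlimb muscle (gastrocnemius, quadriceps and tibialis anterior). DKO and WT muscle each gave 3 cell populations, labelled FAP, Misc and SMP, with 4 DKO and 4 WT libraries in FAP, 4 DKO and 4 WT in Misc, and 2 DKO and 2 WT in SMP. In the field FAP usually abbreviates fibro/adipogenic progenitors and SMP skeletal muscle progenitors, whereas Misc is explained by no label and the series design text lists FB as the remaining population without tying it to Misc. No label names the genes behind DKO; strain, age, sex, any transgene or promoter, pooling of animals and the way cells were separated are likewise not given there. The 2 genes checked for DKO were Des (desmin) and Syne1 (nesprin 1), an assumption taken from background knowledge. Des was lower in DKO than in WT in all 3 populations, at log2 fold changes of −1.81 ± 0.18 in FAP, −1.25 ± 0.25 in Misc and −1.45 ± 0.19 in SMP. Syne1 was lower in Misc (−0.69 ± 0.12) and SMP (−1.03 ± 0.18) and did not pass the test in FAP (−0.31 ± 0.12, adjusted p = 0.11).

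Ion channels are membrane proteins that open a pore for selected ions. A pore subunit sets the ion and the gate, and auxiliary subunits change its opening and its trafficking to the surface. In excitable cells calcium and sodium channels depolarise the membrane and potassium channels return it to rest, and in skeletal muscle fibres the L-type calcium channel also senses the voltage that starts contraction. Mesenchymal and progenitor cells fire no action potentials, but their potassium channels set the resting potential and their calcium channels can admit calcium, which is a general signal in growth, migration and fusion.

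Library totals ran from 5.83 to 17.73 M counts and were lowest in SMP DKO (5.83 and 6.12 M). The FAP and the muscle progenitor marker lists were each highest in the population of that name. The 5 FAP markers summed to 3680 to 4637 CPM (counts scaled to a library total of 1e6) in FAP DKO and 5083 to 5398 CPM in FAP WT, against 144.6 and 619.4 CPM in SMP DKO and 232.9 and 250 CPM in SMP WT. The 7 muscle progenitor markers summed to 2281 and 2383 CPM in SMP DKO and 2588 and 2614 CPM in SMP WT, and to at most 370.5 CPM in any FAP or Misc library. SMP was also highest in the 8 pericyte and smooth muscle markers, at 1309 and 1514 CPM in DKO and 1666 and 1695 CPM in WT. No FAP or Misc library passed 691.8 CPM. The Schwann cell and nerve sheath markers given below were likewise highest in SMP. The part of such cells in the SMP results was not tested. Misc carried the 4 tendon markers at 19740 to 29990 CPM in DKO and 31700 to 34240 CPM in WT, where no FAP or SMP library passed 1855 CPM. SMP DKO replicate 2 stood apart from SMP DKO replicate 1, with endothelial markers at 503 against 104.5 CPM, FAP markers at 619.4 against 144.6 CPM and muscle fibre markers at 643.9 against 261.6 CPM. Values without it are given beside the DKO calls in SMP that it ended or moved by more than 1.5 times.

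Each adjusted p below is from the quasi-likelihood test of edgeR, adjusted by Benjamini and Hochberg's method over all 14179 genes tested, a value under 0.05 is a call, and log2 fold changes are given ± their standard error. The n is 4 against 4 libraries in FAP and Misc and 2 against 2 in SMP. Whether replicates came from separate animals is not stated beyond the word biological, so the tests measure the spread between these libraries.

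Kcna2 was lower in DKO in all 3 populations, Kcnma1 in Misc and SMP and Kcng4 in FAP and Misc, and their promoters are given because results below turn on them. Each covers 250 bases before and 50 after 1 start that RefSeq lists for the gene in GRCm38.p6 (mm10), read 5′ to 3′, with every CAGCTG in capitals. CAGCTG is an E-box, a motif bound by myogenic and other basic helix-loop-helix factors, and it reads the same on both strands.
Kcna2, chr3:107101317-107101616, plus strand: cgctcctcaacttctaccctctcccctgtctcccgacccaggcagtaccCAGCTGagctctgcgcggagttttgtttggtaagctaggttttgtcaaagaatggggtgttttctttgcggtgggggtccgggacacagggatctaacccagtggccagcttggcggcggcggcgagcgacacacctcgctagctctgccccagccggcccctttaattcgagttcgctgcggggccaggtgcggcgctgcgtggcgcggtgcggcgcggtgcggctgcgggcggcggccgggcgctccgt
Kcng4, chr8:119635631-119635930, minus strand: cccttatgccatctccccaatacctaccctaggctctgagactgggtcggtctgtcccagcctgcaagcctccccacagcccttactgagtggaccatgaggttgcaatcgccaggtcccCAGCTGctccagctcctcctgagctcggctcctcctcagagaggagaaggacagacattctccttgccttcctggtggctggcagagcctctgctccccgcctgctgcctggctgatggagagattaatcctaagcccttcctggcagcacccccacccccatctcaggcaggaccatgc
Kcnma1, chr14:24004156-24004455, minus strand: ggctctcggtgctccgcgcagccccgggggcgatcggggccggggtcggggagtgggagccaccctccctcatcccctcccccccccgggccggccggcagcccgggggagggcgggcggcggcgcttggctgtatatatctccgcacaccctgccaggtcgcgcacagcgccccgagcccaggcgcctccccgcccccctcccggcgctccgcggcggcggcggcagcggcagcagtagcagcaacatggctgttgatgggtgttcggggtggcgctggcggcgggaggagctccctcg
The listed start lies at the annotated 5′ edge of Kcng4, but 10684 bases inside that of Kcna2 and 905 bases inside that of Kcnma1. The Kcna2 promoter held 1 CAGCTG, 201 bases before the start, and 31 CpG. The Kcng4 promoter held 1 CAGCTG, 130 bases before the start, and 4 CpG. No CAGCTG stood in the Kcnma1 window, which held 36 CpG. Among all 32851 listed mouse promoters of this length 16.3% held the motif, as did 37 of the 137 listed promoters of channel genes (27.0%), which belong to 101 of these genes. A match is a description of these letters and not a site of binding or a cause.

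Of the 137 genes, 70 were expressed in at least 1 group, taking as expressed a level of at least 1 CPM in every library of the group. The number was 35 in FAP DKO and 39 in FAP WT, 39 in Misc DKO and 45 in Misc WT, and 49 in SMP DKO and 47 in SMP WT. All 6 groups shared 24 genes, 18 reached the level only in SMP groups, 6 only in Misc groups and 1 only in FAP groups. The rule asks for 2 libraries in an SMP group and 4 in a FAP or Misc group, so SMP groups meet it more easily. Kcnq5, for example, passed only in SMP groups, yet was at 1.81, 0.811, 1.00 and 1.52 CPM in the FAP WT libraries. No count at all was found for 7 genes. The 24 shared genes included Cacna1a, Cacna1c and Cacna1g among calcium pores, 3 of the 4 beta subunits (Cacnb1, Cacnb3, Cacnb4), the two-pore-domain channels Kcnk2, Kcnk5 and Kcnk6, and the sodium-sensing channel gene Scn7a. By family, 20 of 40 Kv pore genes, 6 of 15 inward rectifiers, 5 of 14 two-pore-domain genes, 6 of 10 calcium pores, 2 of 8 gamma subunits and 3 of 10 sodium pores were expressed somewhere, whereas all 4 genes each of the alpha2delta, calcium beta and sodium beta families were. All 137 genes together took 0.0631% to 0.1211% of a library's counts. With a bar of 0.5 CPM 84 genes were expressed in at least 1 group, and with 2 CPM 55 were.

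**Figure D1:**
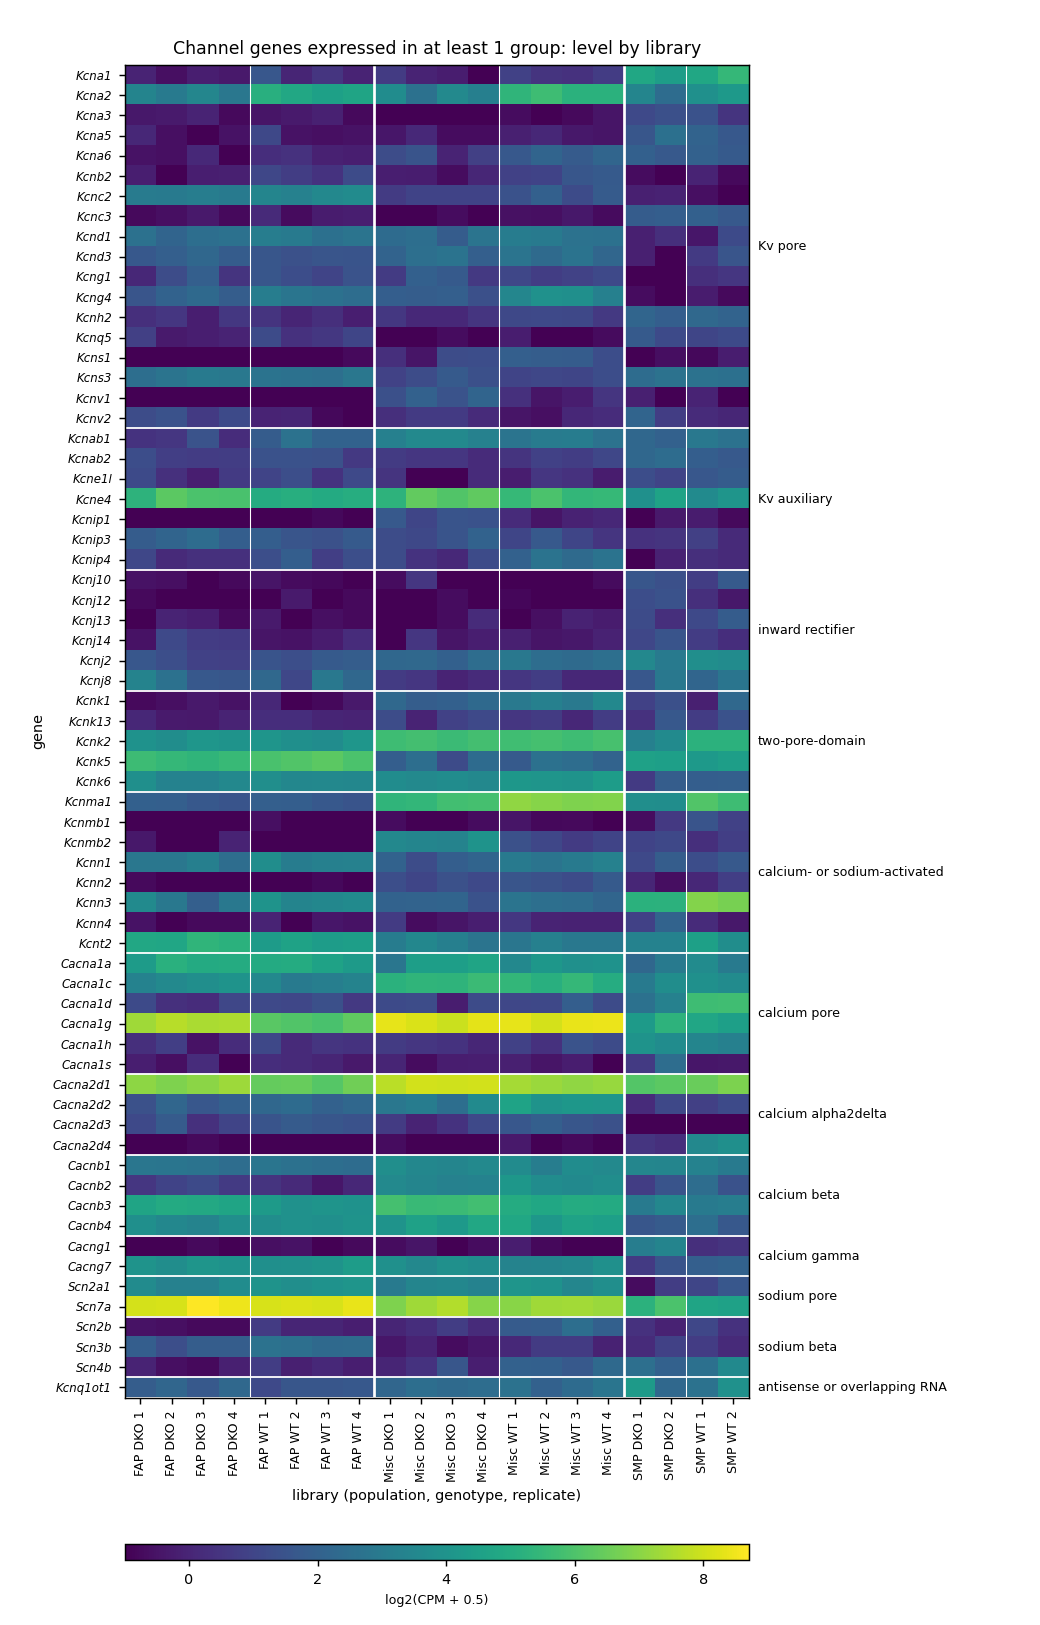
Level of 66 of the 70 expressed channel genes (rows, by family) in the 20 libraries (columns, DKO left of WT in each population), as log2(CPM + 0.5). The SMP columns stand apart in Kcna1, which is high there, and the FAP columns in Scn7a, at 272 to 417 CPM in DKO and 278 to 330 CPM in WT.

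Levels between genes were compared as CPM per kilobase of exon. In FAP the sodium-sensing channel gene Scn7a stood first, at 37.0 to 56.8 CPM per kb in DKO and 38.0 to 44.9 CPM per kb in WT. In Misc the T-type calcium pore gene Cacna1g stood first by its mean, at 23.8 to 31.8 CPM per kb in DKO and 26.5 to 33.4 CPM per kb in WT. In Misc DKO that range overlapped that of Kcne4, a Kv auxiliary subunit that damps potassium currents (14.5 to 30.7 CPM per kb), so the order of the pair was not fixed by the libraries. In SMP DKO the calcium gamma subunit gene Cacng1 was at 6.54 and 7.95 CPM per kb and Kcne4 at 5.31 and 9.03 CPM per kb, ranges that overlap. In SMP WT the small-conductance potassium channel gene Kcnn3 led by its mean, at 10.1 and 11.5 CPM per kb.

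Over all 137 genes the summed level was 970.5 to 1151 CPM in FAP DKO against 836.3 to 932.4 CPM in FAP WT. It was 1110 to 1262 CPM in Misc DKO against 1211 to 1265 CPM in Misc WT, and 509.2 and 585.1 CPM in SMP DKO against 764.3 and 780.1 CPM in SMP WT. The sums were thus higher in every FAP DKO library than in any FAP WT library, lower in both SMP DKO libraries than in SMP WT, and overlapping in Misc. Such sums follow the genes of highest level. In FAP Cacna1g alone had a mean of 180.4 CPM in DKO against 69.9 CPM in WT, and Cacna2d1 132.6 against 84.8 CPM. The median log2 fold change over the tested channel genes in FAP was −0.33. The summed Kv pore genes moved otherwise, at 49.5 to 59.5 CPM in FAP DKO against 74.1 to 98.8 CPM in FAP WT and 42.0 to 46.7 CPM in Misc DKO against 87.6 to 109.0 CPM in Misc WT, with no overlap in either population. In SMP they came to 85.6 and 98.7 CPM in DKO against 95.4 and 119.1 CPM in WT, which overlapped. Kcna2 alone was at 6.76 to 10.4 CPM in FAP DKO against 22.4 to 34.7 CPM in FAP WT. In Misc it was at 5.63 to 12.8 CPM in DKO against 35.99 to 50.9 CPM in WT. Fewer cells of a type and less RNA per cell cannot be told apart in such libraries. On principal components of the tested channel genes, the first (46.7% of variance) set SMP apart, the second (31.3%) divided FAP from Misc, and the third (7.9%) had every DKO library below 0 and every WT library above it.

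Enough counts for the test were found for 79 of the 137 genes, and the other 58 fell under the filter. In FAP, 13 of the 79 (16.5%) differed between DKO and WT, 7 higher and 6 lower, where 10.7% of all genes tested were called (5.58% higher and 5.14% lower). In Misc it was 24 (30.4%), 5 higher and 19 lower, where 18.7% of all genes were called (9.15% higher and 9.55% lower). In SMP it was 17 (21.5%), 5 higher and 12 lower, where 23.0% of all genes were called (11.8% higher and 11.2% lower). The median log2 fold change over the tested channel genes was −0.33 in FAP, −0.37 in Misc and −0.32 in SMP, beside −0.01, 0.01 and 0.01 over all genes. Genes with no counts in 1 group and more than 3 in the other were then set to the bound their counts allow. Genes with 3 counts or fewer in both groups were left out. The medians were then −0.27, −0.38 and −0.41, with other genes of few counts kept at their fitted values. Long genes ran slightly lower in DKO (Spearman's rho between log2 fold change and exon length −0.07, −0.14 and −0.22 over 13670 genes, given as a description), and the channel medians with that trend removed were −0.33, −0.35 and −0.26. In all, 41 genes were called in at least 1 population, 30 of them in 1, 9 in 2 and 2 in all 3. The matching shares over all genes tested were not computed, so these counts only describe the channel genes. The comparisons of the 3 populations share no library, but they come from 1 fit. Same-numbered FAP and Misc libraries also deviated together, with correlations of 0.18 to 0.34 in DKO and 0.18 to 0.23 in WT. Calls shared by FAP and Misc are thus not independent of each other. Leaving out FAP DKO replicate 4 lowered the FAP count to 8. The SMP count was 11 without SMP DKO replicate 2 and 9 without SMP WT replicate 2, and with the SMP groups alone in the fit 6 of the 17 calls remained (Cacna1d, Cacna2d4, Cacng1, Kcnk2, Kcnma1 and Kcnn3).

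**Figure D2:**
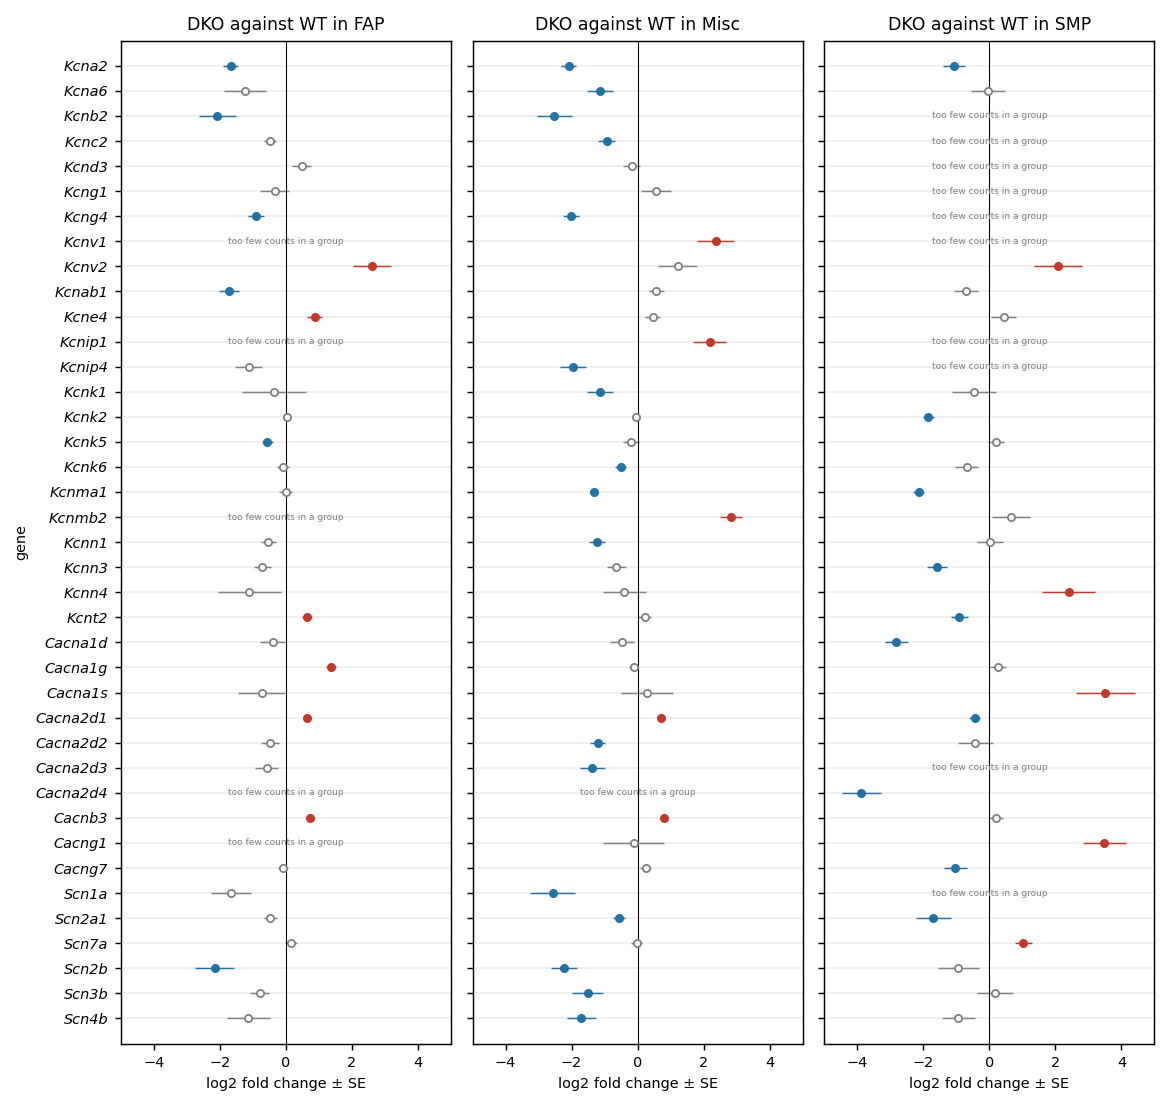
Log2 fold change of DKO over WT (horizontal axis, points ± SE) for 39 of the 41 channel genes called in any of FAP, Misc and SMP (panels). Filled red points are called higher, filled blue points called lower and open grey points not called, and no point is drawn where a group held 3 counts or fewer. Blue points outnumber red ones in Misc, where 19 lower and 5 higher calls were made in all, and Kcna2 is the single gene lower in all 3 panels.

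Among Kv pore genes, 1 was higher and 3 lower in FAP, 1 higher and 7 lower in Misc, and 1 higher and 3 lower in SMP, of 21 tested. These are 19%, 38.1% and 19% of the 21, beside 10.7%, 18.7% and 23.0% of all genes, so in SMP the share was below that of all genes. Kcna2 (Entrez 16490, chromosome 3, 107090883 to 107115005 in mm10), a delayed rectifier best known from axons, was the only channel gene lower in all 3. In FAP its levels were 9.89, 7.36, 10.4 and 6.76 CPM in DKO libraries, against 34.7, 27.8, 22.4 and 25.2 CPM in WT (log2 fold change −1.67 ± 0.23, adjusted p = 5.9e-05). In Misc its levels were 12.8, 5.63, 11.5 and 8.55 CPM in DKO libraries, against 40.1, 50.9, 36.7 and 35.99 CPM in WT (log2 fold change −2.09 ± 0.23, adjusted p = 1.5e-06). In both populations every DKO library lay below every WT library, by a wide margin. In SMP its levels were 10.3 and 4.89 CPM in DKO libraries, against 14.1 and 18.1 CPM in WT (log2 fold change −1.07 ± 0.34, adjusted p = 0.03). The SMP call was the weakest of the 3, since it ended without SMP DKO replicate 2 (−0.65, adjusted p = 0.24), without SMP WT replicate 2 (−0.89, adjusted p = 0.14), with the length trend removed (−0.88, adjusted p = 0.085) and with the SMP groups alone in the fit (−1.10, adjusted p = 0.11). Without SMP DKO replicate 1 its value was −1.70.

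Schwann cell and nerve sheath markers were also lower in sum in every Misc and SMP DKO library than in any WT library, and overlapped in FAP. The 8 markers summed to 12.4 to 41.9 CPM in FAP DKO against 30.7 to 71.0 CPM in FAP WT, to 23.0 to 34.4 CPM in Misc DKO against 62.6 to 68.9 CPM in Misc WT, and to 200.3 and 278.1 CPM in SMP DKO against 326.3 and 328.6 CPM in SMP WT. Cdh19 was called lower in FAP, and Ngfr and Cdh19 in Misc, while in SMP 0 of the 8 were called by edgeR (1 at an unadjusted p under 0.05) and 0 by DESeq2, and none of the 8 was at 0 in every library of any group. The 5 neuron markers summed to at most 13.3 CPM in any library, and Syt1 was called lower in FAP and Misc. Other markers also moved in Misc. The 10 muscle fibre markers summed to 46.0 to 83.7 CPM in Misc DKO against 31.2 to 39.2 CPM in Misc WT, and Acta1, Myh1, Mylpf and Mb were called higher. The 6 endothelial markers summed to 45.2 to 71.1 CPM in Misc DKO against 85.1 to 117.5 CPM in Misc WT, and Tek was called lower. Tek alone was at 19.2 to 27.6 CPM in Misc DKO against 55.9 to 75.5 CPM in Misc WT, and every other endothelial marker overlapped. It was also called lower in FAP and SMP. The FAP marker Pi16 was called higher, at 248.2 to 367.9 CPM in Misc DKO against 28.9 to 61.4 CPM in Misc WT, while the 5 FAP markers together overlapped (1028 to 1130 CPM in Misc DKO against 966.8 to 1099 CPM in Misc WT). The part of these cells in the channel results was not tested.

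Kcng4, a silent subunit that works only with Kv partners such as Kcnb2, followed Kcna2 in 2 populations. Its levels were 2.42, 3.60, 4.45 and 3.13 CPM in FAP DKO libraries, against 8.09, 6.38, 5.68 and 5.05 CPM in FAP WT (log2 fold change −0.89 ± 0.24, adjusted p = 0.017), and 3.24, 3.11, 3.36 and 2.07 CPM in Misc DKO libraries, against 10.5, 14.6, 13.9 and 8.74 CPM in Misc WT (log2 fold change −2.01 ± 0.24, adjusted p = 2.1e-06). The groups did not overlap in either population, but the FAP call ended without FAP DKO replicate 1 (−0.75, adjusted p = 0.056), FAP DKO replicate 4 (−0.86, adjusted p = 0.056) or FAP WT replicate 1 (−0.75, adjusted p = 0.083). Its delayed rectifier partner Kcnb2 was at 0.373, 0, 0.387 and 0.392 CPM in FAP DKO libraries, against 1.57, 1.22, 0.835 and 1.81 CPM in FAP WT (log2 fold change −2.07 ± 0.55, adjusted p = 0.014). In Misc Kcnb2 was at 0.373, 0.359, 0.120 and 0.518 CPM in DKO libraries, against 1.35, 1.42, 2.55 and 2.84 CPM in WT (log2 fold change −2.52 ± 0.54, adjusted p = 0.0017). Both sets of groups were apart, at levels near 1 CPM.

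Kcnc2, a fast-deactivating channel (−0.93 ± 0.26), and Kcna6 (−1.13 ± 0.39) were also lower in Misc. Kcnv1, a silent subunit, was higher there, at 2.12, 3.59, 2.28 and 3.88 CPM in DKO libraries, against 0.766, 0.237, 0.364 and 0.908 CPM in WT (log2 fold change 2.37 ± 0.56, adjusted p = 0.0062), and had 0 counts in all 8 FAP libraries. Its relative Kcnv2 was higher in FAP, at 1.86, 2.19, 1.06 and 1.76 CPM in DKO libraries, against 0.471, 0.507, 0.0835 and 0 CPM in WT (log2 fold change 2.62 ± 0.58, adjusted p = 0.0043), and in SMP, at 3.82 and 1.19 CPM in DKO libraries, against 0.648 and 0.526 CPM in WT (log2 fold change 2.08 ± 0.72, adjusted p = 0.04). All DKO libraries lay above all WT libraries in both. The SMP call of Kcnv2 ended without SMP DKO replicate 1 (1.01, adjusted p = 0.47), SMP WT replicate 1 (2.24, adjusted p = 0.12) or SMP WT replicate 2 (1.93, adjusted p = 0.15). In SMP, Kcnd3, a transient outward channel, had 3 counts in the DKO libraries together against 41 in the WT libraries, a ratio of 0.121 per scaled total with a 95% counting interval of 0.024 to 0.380. Silent subunit Kcng1 had 0 counts in SMP DKO against 20 in SMP WT, at least 4.03-fold lower on a floor of 3 counts over the group. Kcnd3 lost its call without SMP DKO replicate 2 (adjusted p = 0.055) or SMP WT replicate 2 (adjusted p = 0.052), and Kcng1 without SMP DKO replicate 1 (adjusted p = 0.095), SMP DKO replicate 2 (adjusted p = 0.084) or SMP WT replicate 2 (adjusted p = 0.055).

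The DKO effect itself was also compared between populations. In FAP minus Misc 2 of the 79 channel genes had a higher and 1 a lower effect, where 2.79% of all genes were called (1.37% higher and 1.42% lower). In FAP minus SMP it was 8 higher and 2 lower, where 10.3% were called (4.92% higher and 5.42% lower), and in Misc minus SMP 9 higher and 3 lower, where 8.94% were called (4.61% higher and 4.34% lower). Values are given with each gene.

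**Figure D3:**
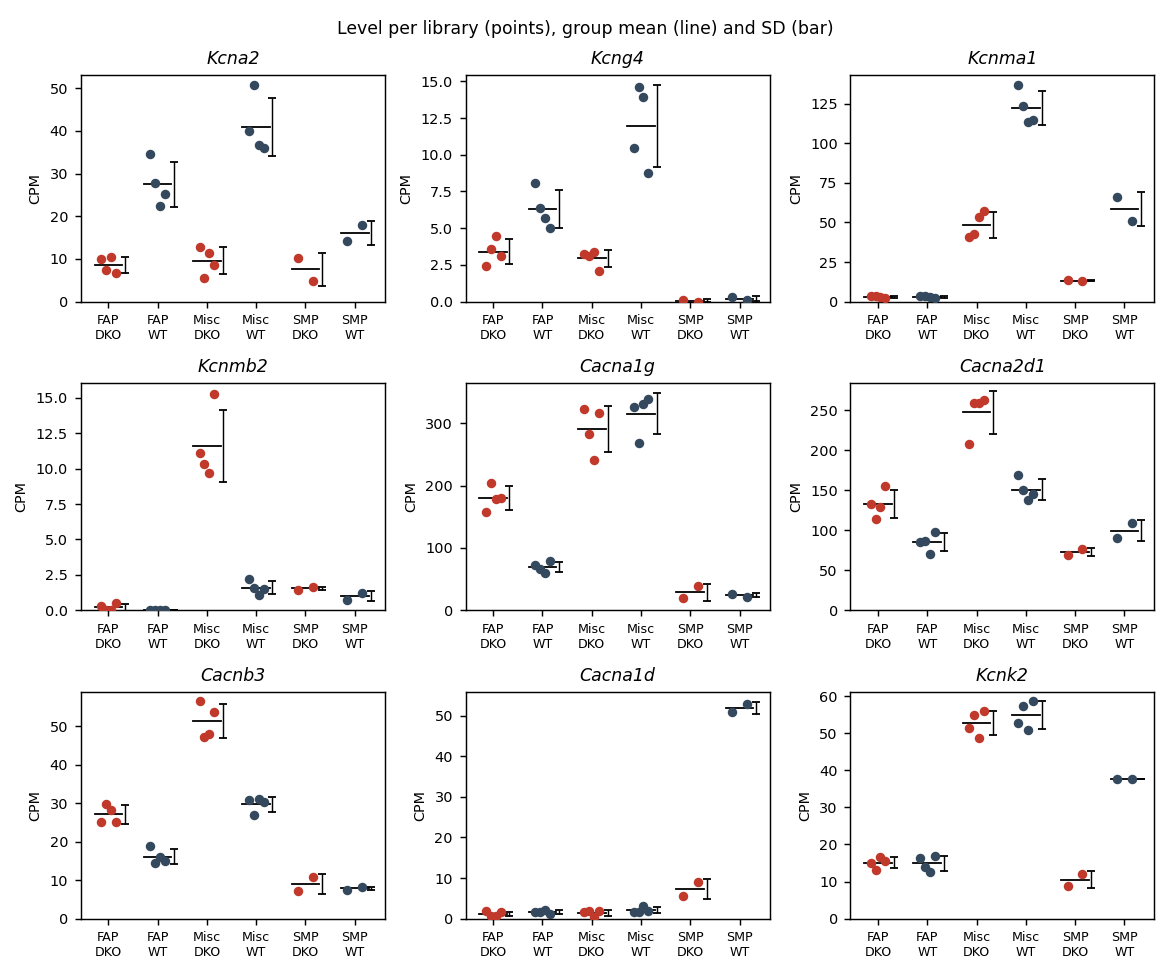
CPM of 9 channel genes in each library (points, red for DKO and dark blue for WT), with the group mean (line) and SD (bar), for FAP (n = 4 each), Misc (n = 4 each) and SMP (n = 2 each). Kcna2 sits lower in DKO in every population, Kcnma1 in Misc and SMP, and Cacna1d and Kcnk2 in SMP, while Kcnmb2 sits higher in Misc DKO, at 9.71 to 15.3 CPM against 1.09 to 2.18 CPM in Misc WT.

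Among Kv auxiliary subunits, Kcnab1 was lower and Kcne4 higher in FAP, and Kcnip1 was higher and Kcnip4 lower in Misc. Kcnab1, a beta subunit that speeds inactivation of Kcna family channels, was at 0.839, 0.940, 2.32 and 0.686 CPM in FAP DKO libraries, against 3.06, 5.88, 3.67 and 3.62 CPM in FAP WT (log2 fold change −1.72 ± 0.30, adjusted p = 0.00048). Every FAP DKO library was below every FAP WT library. In Misc its levels were 8.96, 11.3, 11.4 and 9.19 CPM in DKO libraries, against 6.07, 7.81, 7.83 and 5.79 CPM in WT, above WT in every library but short of a call (log2 fold change 0.57 ± 0.23, adjusted p = 0.088). The DKO effect in FAP minus that in Misc was −2.28, adjusted p = 0.00090. Kcne4 was at 38.4, 75.4, 61.1 and 60.6 CPM in FAP DKO libraries, against 30.9, 33.5, 30.2 and 32.4 CPM in FAP WT (log2 fold change 0.88 ± 0.23, adjusted p = 0.02). This FAP call ended without FAP DKO replicate 2 (0.75, adjusted p = 0.073), FAP DKO replicate 4 (0.87, adjusted p = 0.053), FAP WT replicate 1 (0.87, adjusted p = 0.059) or FAP WT replicate 3 (0.86, adjusted p = 0.053). The calcium-binding Kv partners Kcnip1 and Kcnip4 moved apart in Misc. Kcnip1 was at 2.74, 1.56, 2.40 and 2.20 CPM in Misc DKO libraries, against 0.648, 0.237, 0.455 and 0.568 CPM in Misc WT (log2 fold change 2.18 ± 0.49, adjusted p = 0.003), and Kcnip4 at 1.87, 0.838, 0.599 and 1.81 CPM in Misc DKO libraries, against 3.54, 5.92, 4.55 and 6.02 CPM in Misc WT (log2 fold change −1.96 ± 0.39, adjusted p = 0.00078), with no overlap in either. In FAP Kcnip4 was at 1.58, 0.627, 0.774 and 0.784 CPM in DKO libraries, against 2.04, 3.24, 1.25 and 2.00 CPM in WT, overlapping and short of a call (log2 fold change −1.12 ± 0.41, adjusted p = 0.087).

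Kcnma1 (Entrez 16531, chromosome 14, 23292288 to 24005110) encodes the pore of the large-conductance BK channel, opened by both calcium and voltage. Its levels were 40.6, 42.5, 53.3 and 57.5 CPM in Misc DKO libraries, against 137, 124, 113 and 115 CPM in Misc WT (log2 fold change −1.33 ± 0.12, adjusted p = 2.4e-08). In SMP its levels were 13.4 and 12.9 CPM in DKO libraries, against 66.1 and 51.02 CPM in WT (log2 fold change −2.15 ± 0.18, adjusted p = 5.7e-08). Neither pair of groups overlapped, and both calls held in every alternative tried. FAP carried little of it, at 3.45, 3.29, 2.71 and 2.35 CPM in DKO libraries, against 3.38, 3.24, 2.67 and 2.38 CPM in WT, with overlapping groups and a log2 fold change of 0.00 ± 0.20. The effect in FAP minus that in Misc was 1.34 (adjusted p = 0.0015), and in FAP minus that in SMP 2.15 (adjusted p = 1.9e-05).

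The BK auxiliary subunit Kcnmb2, which inactivates the channel, ran the other way in Misc. Its levels were 11.1, 10.3, 9.71 and 15.3 CPM in Misc DKO libraries, against 2.18, 1.58, 1.09 and 1.48 CPM in Misc WT (log2 fold change 2.83 ± 0.33, adjusted p = 2.9e-06), so the lowest DKO library was well above the highest WT library while the pore gene fell in the same libraries. In FAP 8 counts in all DKO libraries together stood against 0 in WT, at least 3.19-fold higher on a floor of 3 counts over the group. That FAP call rests on FAP DKO replicates 1 and 4, ended when either or any 1 of the 4 FAP WT libraries was left out (adjusted p 0.069 to 0.16), and does not come with expression at 1 CPM. Among small-conductance channels, Kcnn1 was lower in Misc, at 3.61, 1.92, 3.24 and 3.88 CPM in DKO libraries, against 7.25, 6.15, 7.19 and 9.20 CPM in WT (log2 fold change −1.23 ± 0.24, adjusted p = 0.00074). Kcnn3 was lower in SMP, at 36.6 and 37.5 CPM in DKO libraries, against 119.8 and 105 CPM in WT (log2 fold change −1.60 ± 0.30, adjusted p = 0.00088), with both DKO libraries alike and far below both WT libraries. Kcnn4, the intermediate-conductance channel common in immune cells, was at 1.32 and 3.70 CPM in SMP DKO libraries, against 0.648 and 0.263 CPM in SMP WT (log2 fold change 2.40 ± 0.80, adjusted p = 0.032). The higher value came from SMP DKO replicate 2, and the call ended without it (1.48, adjusted p = 0.32), without SMP WT replicate 1 (3.18, adjusted p = 0.059) or without SMP WT replicate 2 (1.91, adjusted p = 0.17), while without SMP DKO replicate 1 the value was 2.99. Immune markers were 23.5 CPM in SMP DKO replicate 1 and 108.3 CPM in replicate 2, against 15.9 and 21.3 CPM in SMP WT, and their part in this result was not tested.

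Kcnt2, a channel opened by intracellular sodium, was called in opposite directions. Its levels were 27.9, 26.3, 39.98 and 36.5 CPM in FAP DKO libraries, against 19.7, 23.4, 19.9 and 20.9 CPM in FAP WT (log2 fold change 0.64 ± 0.16, adjusted p = 0.011), and 9.36 and 9.33 CPM in SMP DKO libraries, against 22.4 and 12.9 CPM in SMP WT (log2 fold change −0.92 ± 0.26, adjusted p = 0.013). The effect in FAP minus that in SMP was 1.56, adjusted p = 0.0018. Without FAP DKO replicate 3 the FAP call ended (0.53, adjusted p = 0.052). The SMP call ended without SMP DKO replicate 1 (−0.90, adjusted p = 0.058), SMP DKO replicate 2 (−0.93, adjusted p = 0.054) or SMP WT replicate 1 (−0.46, adjusted p = 0.27).

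Two-pore-domain channels carry the background potassium current that sets the resting potential, and 6 were tested. Kcnk2 (Entrez 16526, chromosome 1, 189207930 to 189402782), a channel opened by membrane stretch, was at 8.83 and 12.2 CPM in SMP DKO libraries, against 37.6 and 37.6 CPM in SMP WT (log2 fold change −1.85 ± 0.17, adjusted p = 1.2e-07). Misc libraries held more of it than SMP libraries, at 51.5, 54.96, 48.7 and 55.9 CPM in DKO libraries, against 52.9, 57.3, 50.8 and 58.7 CPM in WT, with overlapping groups and a log2 fold change of −0.06 ± 0.10. In FAP the fold change was 0.03 ± 0.12. The DKO effect in FAP minus that in SMP was 1.87 (adjusted p = 2.3e-06) and in Misc minus that in SMP 1.79 (adjusted p = 2.8e-06). Exons of Kcnk2 overlap an opposite-strand gene over 12.2% of their bases, and the sources do not say whether the counting used strand. Kcnk5, an alkaline-activated channel, was at 50.2, 43.9, 40.3 and 45.5 CPM in FAP DKO libraries, against 59.8, 66.7, 76.6 and 61.2 CPM in FAP WT (log2 fold change −0.56 ± 0.16, adjusted p = 0.023). Groups were apart, but the call ended without FAP DKO replicate 2 (−0.54, adjusted p = 0.066), FAP DKO replicate 3 (−0.50, adjusted p = 0.070), FAP DKO replicate 4 (−0.56, adjusted p = 0.059), FAP WT replicate 2 (−0.55, adjusted p = 0.057) or FAP WT replicate 3 (−0.48, adjusted p = 0.087). Kcnk6 (−0.51 ± 0.16) and Kcnk1 (−1.13 ± 0.39) were called lower in Misc. Kcnk6 lost its call without Misc DKO replicate 2 (−0.49, adjusted p = 0.076), Misc DKO replicate 4 (−0.50, adjusted p = 0.067), Misc WT replicate 1 (−0.51, adjusted p = 0.064) or Misc WT replicate 4 (−0.45, adjusted p = 0.089), and Kcnk1 without any 1 of the 8 Misc libraries (−1.24 to −1.0, adjusted p 0.062 to 0.13).

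None of the 6 inward rectifiers tested was called by edgeR in any population, with 1 at an unadjusted p under 0.05 in each. DESeq2 called 0 in FAP, 1 in Misc and 0 in SMP. Kcnj2, which holds the resting potential of muscle, was at 11.2 and 7.26 CPM in SMP DKO libraries, against 13.5 and 12.3 CPM in SMP WT (−0.47 ± 0.28, adjusted p = 0.24). Kcnj8, the pore of an ATP-sensitive channel, ranged from 2.55 to 9.61 CPM in FAP DKO and from 1.62 to 6.84 CPM in FAP WT, with overlapping groups.

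Calcium channel genes were called in both directions. Cacna2d1 (Entrez 12293, chromosome 5, 15934264 to 16374511), an alpha2delta subunit that carries pore subunits to the cell surface, was at 132, 114, 128 and 156 CPM in FAP DKO libraries, against 85.6, 86.2, 70.1 and 97.5 CPM in FAP WT (log2 fold change 0.65 ± 0.11, adjusted p = 0.00052). In Misc its levels were 208, 259.6, 259 and 263 CPM in DKO libraries, against 169, 150.2, 137 and 146 CPM in WT (log2 fold change 0.72 ± 0.11, adjusted p = 6.9e-05). In both every DKO library lay above every WT library. In SMP it was lower, at 69.05 and 76.7 CPM in DKO libraries, against 89.9 and 109 CPM in WT (log2 fold change −0.45 ± 0.16, adjusted p = 0.049). The SMP call was at the threshold and ended without SMP DKO replicate 1 (−0.36, adjusted p = 0.22), SMP DKO replicate 2 (−0.53, adjusted p = 0.072) or SMP WT replicate 2 (−0.32, adjusted p = 0.28), with the length trend removed (−0.24, adjusted p = 0.27), with DESeq2's test (−0.42, adjusted p = 0.055) or size factors (−0.42, adjusted p = 0.061), and with the SMP groups alone in the fit (−0.47, adjusted p = 0.11). The effect in FAP minus that in SMP was 1.09 (adjusted p = 0.00096) and in Misc minus that in SMP 1.16 (adjusted p = 0.00045).

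Cacnb3, a cytoplasmic beta subunit that promotes opening of the calcium channel, rose beside it. Its levels were 25.1, 29.9, 28.4 and 25.1 CPM in FAP DKO libraries, against 19.00, 14.6, 15.9 and 15.04 CPM in FAP WT (log2 fold change 0.74 ± 0.12, adjusted p = 0.00016). In Misc its levels were 56.5, 47.2, 48.1 and 53.6 CPM in DKO libraries, against 30.8, 26.8, 31.1 and 30.4 CPM in WT (log2 fold change 0.79 ± 0.11, adjusted p = 1.7e-05). The groups were apart in both populations, and Cacnb3 and Cacna2d1 in FAP and Misc kept their calls in every alternative tried. In SMP Cacnb3 was at 7.25 and 10.8 CPM in DKO libraries, against 7.54 and 8.15 CPM in WT, overlapping (0.20 ± 0.20). Of the 3 other alpha2delta genes 2 fell in Misc. Cacna2d2 was at 6.72, 7.90, 5.15 and 12.04 CPM in Misc DKO libraries, against 24.1, 15.1, 17.2 and 16.6 CPM in Misc WT (log2 fold change −1.21 ± 0.22, adjusted p = 0.00042), and Cacna2d3 at 1.12, 0.479, 0.839 and 1.68 CPM in Misc DKO libraries, against 2.59, 3.31, 2.55 and 2.16 CPM in Misc WT (log2 fold change −1.37 ± 0.38, adjusted p = 0.014). Cacna2d3 lost its call without Misc DKO replicate 2 (−1.13, adjusted p = 0.057). Cacna2d4 did not pass the test in Misc and was lower in SMP, at 0.922 and 0.741 CPM in SMP DKO libraries, against 11.03 and 13.8 CPM in SMP WT (log2 fold change −3.88 ± 0.60, adjusted p = 0.00015), with at most 0.295 CPM in any FAP or Misc library.

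Of the calcium pores, Cacna1g (Entrez 12291, chromosome 11, 94408391 to 94474400), a T-type channel that opens near the resting potential, was at 158, 205, 178 and 180.4 CPM in FAP DKO libraries, against 73.2, 66.5, 60.4 and 79.4 CPM in FAP WT (log2 fold change 1.37 ± 0.15, adjusted p = 1.6e-06). Every DKO library lay far above every WT library, and the call held in every alternative tried. Misc, where the gene was highest, had 323, 284, 241 and 317 CPM in DKO libraries, against 326, 268, 331 and 339 CPM in WT, with overlapping groups (−0.12 ± 0.14). The effect in FAP minus that in Misc was 1.49, adjusted p = 0.00014. Cacna1d (Entrez 12289, chromosome 14, 30039941 to 30491156), an L-type channel active at low voltage, was at 5.67 and 9.04 CPM in SMP DKO libraries, against 50.8 and 52.9 CPM in SMP WT (log2 fold change −2.82 ± 0.35, adjusted p = 9.3e-06). No FAP or Misc library passed 3.19 CPM. The difference of effects from SMP was 2.43 for FAP (adjusted p = 0.0045) and 2.34 for Misc (adjusted p = 0.0051).

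Cacna1s and Cacng1, calcium channel genes of mature muscle fibres, were higher in SMP DKO. Cacna1s, the voltage sensor of contraction, was at 1.05 and 5.04 CPM in SMP DKO libraries, against 0.243 and 0.263 CPM in SMP WT (log2 fold change 3.51 ± 0.89, adjusted p = 0.0068), and the muscle gamma subunit Cacng1 at 8.17 and 9.93 CPM in SMP DKO libraries, against 0.730 and 0.877 CPM in SMP WT (log2 fold change 3.48 ± 0.65, adjusted p = 0.00065). For both genes each DKO library lay above both WT libraries, but Cacna1s reached only 1.05 CPM in SMP DKO replicate 1 and was higher mainly in replicate 2. Cacng1 held in every alternative, whereas Cacna1s lost its call without SMP DKO replicate 2 (2.00, adjusted p = 0.21) or SMP WT replicate 1 (3.46, adjusted p = 0.052) and with the SMP groups alone in the fit (3.49, adjusted p = 0.063), and was at 4.27 without SMP DKO replicate 1. Exons of Cacna1s overlap an opposite-strand gene over 20.0% of their bases. Muscle fibre markers moved with the pair: 8 of 10 were called higher in SMP DKO, and the 10 summed to 261.6 and 643.9 CPM in SMP DKO against 138.7 and 161.7 CPM in SMP WT, with none at 0 in every library of any group. The part of fibre RNA in these results was not tested. Cacng7, a gamma family gene best known from brain, was at 1.05 and 2.37 CPM in SMP DKO libraries, against 3.32 and 3.59 CPM in SMP WT (log2 fold change −1.03 ± 0.35, adjusted p = 0.034). Its call ended without SMP DKO replicate 1 (−0.53, adjusted p = 0.38), SMP WT replicate 1 (−1.09, adjusted p = 0.078) or SMP WT replicate 2 (−0.99, adjusted p = 0.10), and its value without SMP DKO replicate 2 was −1.71.

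In Misc 3 of the 4 sodium channel beta subunits and 2 of the 5 pores tested were lower, where 9.55% of all genes were, and in FAP 1 of the beta subunits was. Scn2b, a beta subunit bound to the pore by a disulphide bridge, was at 0.498, 0.718, 1.20 and 0.647 CPM in Misc DKO libraries, against 2.95, 3.08, 5.19 and 3.41 CPM in Misc WT (log2 fold change −2.23 ± 0.38, adjusted p = 0.00018). In FAP its levels were 0.186, 0.157, 0.0968 and 0.0980 CPM in DKO libraries, against 1.10, 0.507, 0.501 and 0.381 CPM in WT (log2 fold change −2.15 ± 0.59, adjusted p = 0.019). Both were without overlap, at or under about 1 CPM in FAP, where the call ended without FAP DKO replicate 3 (−2.03, adjusted p = 0.055), FAP DKO replicate 4 (−2.03, adjusted p = 0.064) or FAP WT replicate 1 (−1.71, adjusted p = 0.11). Scn4b, which shapes resurgent current, was at 0.498, 0.838, 2.52 and 0.389 CPM in Misc DKO libraries, against 3.54, 3.39, 2.73 and 4.43 CPM in Misc WT (log2 fold change −1.70 ± 0.44, adjusted p = 0.0076), with a value of −2.58 without Misc DKO replicate 3. Scn1a, a neuronal pore, was at 0, 0.120, 0.120 and 0.518 CPM in Misc DKO libraries, against 0.825, 1.58, 1.46 and 0.795 CPM in Misc WT (log2 fold change −2.57 ± 0.68, adjusted p = 0.01), with a value of −3.69 without Misc DKO replicate 4. All 4 DKO libraries lay below all 4 WT libraries for Scn4b and for Scn1a.

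Scn3b (−1.51 ± 0.47, adjusted p = 0.027) and the pore gene Scn2a1 (−0.56 ± 0.19, adjusted p = 0.045) were also lower in Misc, with overlapping groups. Scn3b lost its call without Misc DKO replicates 1, 3 or 4 or Misc WT replicates 2 or 3 (−1.51 to −1.27, adjusted p 0.054 to 0.087). Scn2a1 lost its call without Misc DKO replicates 1, 2 or 4 or Misc WT replicates 1, 2 or 4 (−0.60 to −0.47, adjusted p 0.061 to 0.15). The replicate block also ended the Scn2a1 call (−0.56, adjusted p = 0.059), though DKO and WT libraries were not paired by number. In SMP Scn2a1 was at 0.132 and 1.19 CPM in DKO libraries, against 1.54 and 2.63 CPM in WT (log2 fold change −1.70 ± 0.53, adjusted p = 0.024), with the call lost without SMP DKO replicate 1 (−0.78, adjusted p = 0.32) or SMP WT replicate 2 (−1.29, adjusted p = 0.16) and a value of −3.86 without SMP DKO replicate 2. Kcna6 in Misc likewise lost its call without Misc DKO replicates 3 or 4 or any 1 of the 4 Misc WT libraries (−1.24 to −0.84, adjusted p 0.053 to 0.14). The rise was Scn7a in SMP, at 36.8 and 61.04 CPM in SMP DKO libraries, against 25.2 and 22.7 CPM in SMP WT (log2 fold change 1.03 ± 0.25, adjusted p = 0.007). It ended without SMP DKO replicate 2 (0.61, adjusted p = 0.14) or SMP WT replicate 2 (0.94, adjusted p = 0.057). Scn7a was far higher in FAP, at 272, 277, 417 and 349 CPM in DKO and 278, 292, 280.5 and 329.7 CPM in WT, and the FAP markers Pdgfra, Ly6a and Pi16 were called higher in SMP DKO, where all 5 FAP markers summed to 144.6 and 619.4 CPM against 232.9 and 250 CPM in SMP WT. Their part in this result was not tested.

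Between populations the share of channel genes called was above that of all genes, but the sets are not alike. A gene could pass the filter through a single group where it is high, and such a gene is more easily called between populations. The median of the mean levels was 2.391 CPM for the tested channel genes, beside 16.34 CPM for all genes tested. No conclusion is drawn from the shares. In DKO, 36 of 79 (45.6%) were called between FAP and Misc, 63 (79.7%) between FAP and SMP and 65 (82.3%) between Misc and SMP, where 29.7%, 58.8% and 59.5% of all genes were called. In WT the counts were 47 (59.5%), 60 (75.9%) and 58 (73.4%), beside 36.9%, 62.3% and 60.6% of all genes. By direction, FAP against Misc in DKO gave 13 higher and 23 lower (16.0% and 13.7% of all genes), FAP against SMP 27 higher and 36 lower (29.2% and 29.6%), and Misc against SMP 31 higher and 34 lower (29.8% and 29.7%). In WT they gave 13 higher and 34 lower (19.3% and 17.6% of all genes), 23 higher and 37 lower (31.1% and 31.3%), and 28 higher and 30 lower (30.6% and 30.0%). Called alike in both genotypes were 11 genes higher and 22 lower in FAP than in Misc, 21 higher and 31 lower in FAP than in SMP, and 22 higher and 28 lower in Misc than in SMP. Between FAP and SMP 1 gene was called in opposite directions in DKO and WT, and 0 in the other pairs. The matching shares over all genes were not computed. Same-numbered FAP and Misc libraries deviated together, and with a block for the number the 15 named differences between FAP and Misc kept their calls in each genotype.

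**Figure D4:**
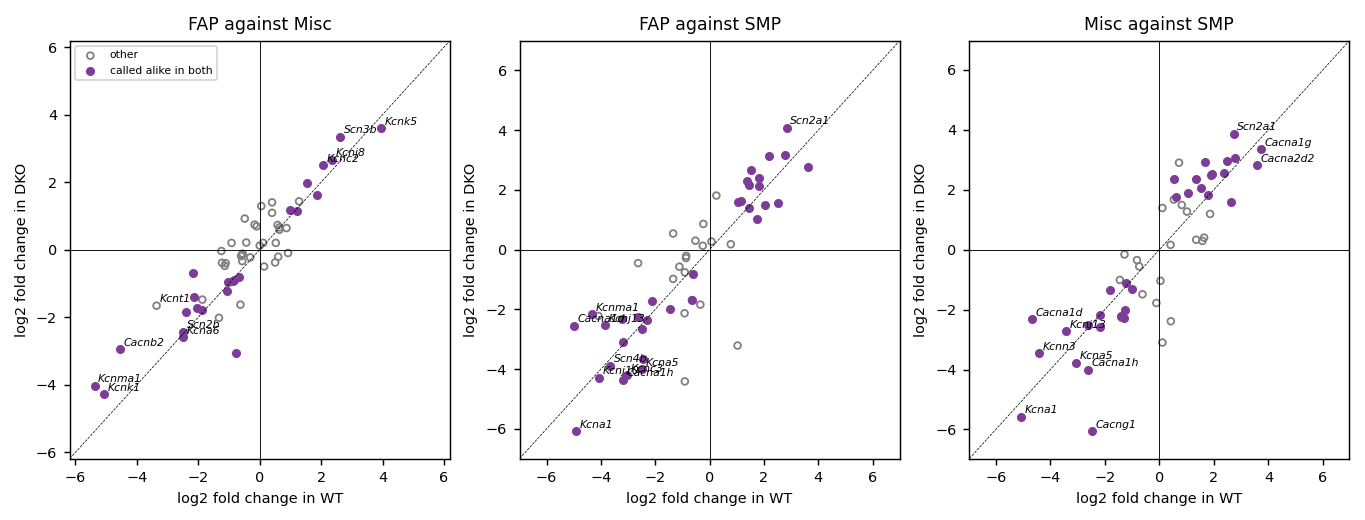
Log2 fold changes between populations in DKO (vertical) against WT (horizontal) for tested channel genes with more than 3 counts in each group, 58, 53 and 52 genes drawn from left to right. Filled points are called in the same direction in both genotypes, and the dashed line marks equal values. Kcnk5 lies at the upper right for FAP over Misc, and Kcnma1 and Kcnk1 at the lower left.

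Kcnk5 and Kcnma1 set FAP apart from Misc in opposite directions. Kcnk5 was higher in FAP by 3.59 ± 0.21 in DKO and 3.94 ± 0.19 in WT on the log2 scale. Scn3b (3.34 ± 0.41 in DKO and 2.62 ± 0.31 in WT), Kcnj8 (2.66 ± 0.53 in DKO and 2.35 ± 0.49 in WT), Kcnc2 (2.50 ± 0.24 in DKO and 2.05 ± 0.20 in WT), Kcnt2 (1.96 ± 0.18 in DKO and 1.53 ± 0.18 in WT) and the silent subunit Kcns3 (1.63 ± 0.22 in DKO and 1.87 ± 0.21 in WT) were also higher in FAP. Kcnq5 had 25 counts in FAP DKO against 1 in Misc DKO. Lower in FAP were Kcnma1 (−4.04 ± 0.16 in DKO and −5.38 ± 0.15 in WT), Kcnk1 (−4.29 ± 0.65 in DKO and −5.06 ± 0.55 in WT, or −5.96 without FAP WT replicate 1) and the calcium beta subunit Cacnb2 (−2.95 ± 0.28 in DKO and −4.54 ± 0.30 in WT). Several Misc genes had almost no counts in FAP: Kcnv1 had 0 in FAP DKO against 96 in Misc DKO, at least 37.1-fold lower, and 0 in FAP WT against 28 in Misc WT, at least 8.51-fold lower. The small-conductance gene Kcnn2 had 1 count in FAP DKO against 60 in Misc DKO, and 1 in FAP WT against 114 in Misc WT.

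In SMP a Kv gene of excitable tissue stood apart. Kcna1, the axonal partner of Kcna2, was at 27.1 and 20.9 CPM in SMP DKO and 27.3 and 44.1 CPM in SMP WT, and at most 2.59 CPM in any FAP or Misc library. FAP had more Scn7a than SMP (2.75 ± 0.24 in DKO and 3.62 ± 0.25 in WT), more Scn2a1 (4.07 ± 0.41 in DKO and 2.84 ± 0.29 in WT) and more Cacng7 (3.15 ± 0.28 in DKO and 2.19 ± 0.23 in WT). Misc had more Cacna1g than SMP (3.35 ± 0.22 in DKO and 3.72 ± 0.22 in WT) and more Cacna2d2 (2.81 ± 0.41 in DKO and 3.58 ± 0.35 in WT). Without SMP DKO replicate 2 the DKO values moved by more than 1.5 times, to 6.24 for Scn2a1 and 3.83 for Cacng7 in FAP over SMP and to 3.94 for Cacna1g and 3.58 for Cacna2d2 in Misc over SMP, and without SMP DKO replicate 1 Scn2a1 was at 3.19.

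Genes that work with these channels were listed apart, 52 in all, of which 48 were tested. In FAP 6 were higher and 5 lower in DKO, in Misc 3 higher and 7 lower, and in SMP 5 higher and 11 lower. These are 22.9%, 20.8% and 33.3% of the 48, beside 10.7%, 18.7% and 23.0% of all genes. The stretch-gated channel Piezo1 was higher in FAP (0.97 ± 0.14) and Misc (0.56 ± 0.13), as was the sodium pump subunit Atp1b2 (0.60 ± 0.14 and 0.83 ± 0.14). The sodium-calcium exchanger Slc8a3 (−1.98 ± 0.38 and −1.73 ± 0.33) and the calcium pump Atp2a3 (−1.71 ± 0.43 and −1.48 ± 0.35) were lower in FAP and Misc. In SMP the calcium release channel Ryr3 (−1.84 ± 0.26), the Kv partner Dpp6 (−2.18 ± 0.44) and the sodium channel partners Ank3 (−0.95 ± 0.16) and Fgf14 (−1.78 ± 0.42) were lower, and Stac2, an adaptor of the L-type channel, was higher (3.92 ± 0.78). The sodium leak channel Nalcn was lower in Misc (−1.34 ± 0.24). These partner genes were not refitted with single libraries left out.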

How the data were processed

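RNA of 20 libraries in 6 groups was read as 100-base pairs on an Illumina HiSeq instrument, at an average of 22 M reads over 2 lanes, and aligned with OSA to mm10 RefSeq, per the labels and the series design text. The authors deposited raw counts per gene; no source here gives the counting tool or its use of strand. DESeq2 is named, with no version, in the submitters' processing notes. Library totals were 5.83 to 17.73 M counts, which limits what can be seen for genes near 1 CPM; counting intervals and floors cover counting error only. All columns were mapped to samples, with 0 left unused.

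Counts of all 6 groups were fitted together with edgeR 4.0.16 in R 4.3.3 (TMM scaling, filterByExpr by group with a minimum count of 10 and total of 15, robust quasi-likelihood test, Benjamini-Hochberg adjustment over 14179 genes, threshold 0.05), after the code was tested on simulated data. DKO was set against WT in each population, populations were compared within each genotype, and the differences between DKO effects were tested. CPM uses the TMM-scaled library total. The members and gene lists were chosen with earlier results of these data known. Named are every channel gene called in a DKO comparison or a difference of DKO effects, up to 8 genes each way per pair of populations with the largest change called alike in both genotypes, the 3 highest per family, and channels of muscle fibres, 69 genes of which 65 were tested, and the text gives those the results turn on; some genes are not reported here. Kcnd3 and Kcng1 in SMP and other groups with 3 counts or fewer are given as counts, ratios or bounds. Promoter sequences and gene coordinates are from RefSeq for GRCm38.p6, where all 137 genes matched by Entrez ID. Exon lengths and exon overlaps are from the GENCODE annotation of GRCm38, where 135 of the genes had an exon length.

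Replicate numbers were checked for pairing by the correlation of deviations from the group means. Same-numbered FAP and Misc libraries had correlations of 0.18 to 0.34 (DKO) and of 0.18 to 0.23 (WT), over 4 pairs each, so the numbers pair these 2 populations; no label says what the number shares. DKO with WT was not paired (−0.06 to 0.29 in FAP). Nor were SMP libraries paired with FAP or Misc libraries of their genotype (lowest −0.26, highest 0.06). Alternatives were DESeq2 1.42.0 (Wald test, and its size factors in edgeR), no filter on low counts, a length trend removed by lowess (span 0.5), only the compared groups in the fit, a replicate block, and each library left out.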

Additional observations from a re-analysis of the deposited data

Results flagged for a closer look

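The DKO effect differed between populations, by edgeR's test of the difference itself, for the following 24 pairs of a channel gene and a population contrast, some of them with their adjusted p in the report. In FAP minus Misc, 3 of 79 genes were called, where 2.79% of all genes were: Cacna1g at 1.49 (log2), Kcnab1 at −2.28 and Kcnma1 at 1.34. These 3 held in every alternative tried.

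In FAP minus SMP, 10 genes were called, where 10.3% of all genes were. Cacna1d was at 2.43, Cacna1g at 1.11 (adjusted p = 0.011), Cacna2d1 at 1.09, Kcnk2 at 1.87, Kcnma1 at 2.15 and Kcnt2 at 1.56. The calcium beta subunit Cacnb2 was at 2.18 (adjusted p = 0.016), with 0.933, 1.41, 1.74 and 1.08 CPM in FAP DKO against 0.864, 0.608, 0.250 and 0.571 CPM in FAP WT, and 1.19 and 2.37 CPM in SMP DKO against 5.03 and 2.19 CPM in SMP WT. Cacna1s was at −4.24 (adjusted p = 0.020), Cacng1 at −5.15 (adjusted p = 0.026) and Kcnd3 at 3.48 (adjusted p = 0.0048). Cacng1 had 1 count in FAP DKO and Kcnd3 3 in SMP DKO, so their fitted values are no bounds. Cacna1d, Cacna2d1, Kcnd3, Kcnk2, Kcnma1 and Kcnt2 held in every alternative tried, and the other 4 did not. Cacna1g lost its call without SMP DKO replicate 1 (0.69, adjusted p = 0.062) or SMP WT replicate 1 (0.98, adjusted p = 0.069), and was at 1.70 without SMP DKO replicate 2. Cacna1s lost it without SMP DKO replicate 2 (−2.73, adjusted p = 0.20), SMP WT replicate 1 (adjusted p = 0.074) or SMP WT replicate 2 (adjusted p = 0.057), and was at −4.99 without FAP DKO replicate 3 and −4.98 without SMP DKO replicate 1. Cacnb2 lost it without SMP DKO replicate 1 (1.75, adjusted p = 0.065) or SMP WT replicate 1 (1.46, adjusted p = 0.14) and with only the FAP and SMP groups in the fit (adjusted p = 0.070). Cacng1 lost it without FAP DKO replicate 4, FAP WT replicates 1 or 2, SMP DKO replicate 2 or SMP WT replicate 1 (−5.01 to −4.80, adjusted p 0.051 to 0.081), and was at −6.80 without FAP DKO replicate 3. Kcnd3 was at 7.64 without SMP DKO replicate 1, 2.60 without SMP DKO replicate 2 and 2.77 without SMP WT replicate 2.

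In Misc minus SMP, 12 genes were called, where 8.94% of all genes were. Among them Cacna1d was at 2.34, Cacna2d1 at 1.16 and Kcnk2 at 1.79, and these 3 held in every alternative tried. Kcnma1 was at 0.82 (adjusted p = 0.019), Cacng7 at 1.27 (adjusted p = 0.038), Kcnmb2 at 2.18 (adjusted p = 0.047), Kcnt2 at 1.12 (adjusted p = 0.029) and Scn7a at −1.05 (adjusted p = 0.034). Kcnc2 was at −3.09 (adjusted p = 0.041), Kcnd3 at 2.81 (adjusted p = 0.023) and Kcng1 at 6.67 (adjusted p = 0.026), and these rest on 2 counts in SMP WT, 3 in SMP DKO and 0 in SMP DKO.

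The other Misc minus SMP calls given did not hold when single libraries were left out. Kcnma1 lost its call without SMP DKO replicate 2 (0.79, adjusted p = 0.068) or SMP WT replicate 1 (0.62, adjusted p = 0.13) and with the length trend removed (0.66, adjusted p = 0.054). Cacng7 lost it without 9 of the 12 Misc and SMP libraries, each left out alone: Misc DKO replicates 1, 3 and 4, Misc WT replicates 1, 2 and 3, SMP DKO replicate 1 and both SMP WT replicates (0.75 to 1.32, adjusted p 0.051 to 0.28), and was at 1.94 without SMP DKO replicate 2. Kcnmb2 lost it without any 1 of those 12 libraries but Misc WT replicate 1 (1.78 to 2.51, adjusted p 0.057 to 0.22). Kcnt2 lost it without Misc DKO replicate 2, Misc WT replicates 1 or 4, either SMP DKO replicate or SMP WT replicate 1 (0.67 to 1.13, adjusted p 0.051 to 0.25), and Scn7a without Misc WT replicate 3, SMP DKO replicate 2 (−0.64, adjusted p = 0.26) or either SMP WT replicate (adjusted p 0.057 to 0.26 over the 4). Kcnc2 lost it without Misc WT replicate 2, either SMP DKO replicate or SMP WT replicate 2 (−3.20 to −2.22, adjusted p 0.060 to 0.20), with DESeq2's test (adjusted p = 0.066) and with no filter on low counts (adjusted p = 0.055), and was at −6.03 without SMP WT replicate 1. Kcnd3 lost it without SMP DKO replicate 2 (1.93, adjusted p = 0.16) or SMP WT replicate 2 (2.10, adjusted p = 0.14), and was at 6.95 without SMP DKO replicate 1. Kcng1 lost it without either SMP DKO replicate or SMP WT replicate 2 (adjusted p 0.069 to 0.098). With only the Misc and SMP groups in the fit, Cacng7, Kcnc2, Kcnd3, Kcnt2 and Scn7a lost their calls (adjusted p 0.061 to 0.10).

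Single libraries stood far from the other 3 of their group in 12 of 174 sets of 4, where chance gives about 1 in 20. In Misc DKO, replicate 1 was lowest for Cacna2d1 (208 CPM, others 259 to 263) and Kcnc2 (1.12 CPM, others 1.42 to 1.44), replicate 3 for Cacna1d (0.36 CPM, others 1.74 to 1.92) and replicate 4 for Kcnn3 (2.2 CPM, others 3.61 to 3.83). In Misc WT, replicate 2 was lowest for Cacnb3 (26.8 CPM) and highest for Kcne4 (61.3 CPM) and Kcnt2 (8.83 CPM), replicate 3 highest for Cacna1d (3.19 CPM) and replicate 1 highest for Kcnn4 (1 CPM). In FAP DKO, replicate 3 was highest for Kcnab1 (2.32 CPM), replicate 1 highest for Kcnip4 (1.59 CPM) and replicate 2 lowest for Scn3b (2.04 CPM).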

How the results depend on the processing

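Of the named DKO calls, 7 of 13 in FAP, 16 of 22 in Misc and 6 of 17 in SMP kept their call under every alternative tried. Leaving out single libraries gave 8 to 15 calls in FAP, 19 to 23 in Misc and 9 to 12 in SMP, 3 to 4, 6 to 13 and 6 to 12 for the differences of DKO effects (FAP minus Misc, FAP minus SMP, Misc minus SMP), and 35 to 64 between populations. With only the compared groups in the fit there were 6 calls in SMP, against 17 in the fit of all groups, and 5 for FAP minus Misc, against 3. Over the single genes named here, each in its comparison, the replicate block kept 164 of 178 on their side of the threshold and ended 12 calls. These were Kcnk1 (−1.11) and Scn2a1 (−0.56) in Misc DKO against WT, Kcnv2 in SMP (2.04), and in Misc minus SMP Kcnma1 (0.57, adjusted p = 0.12), Kcnmb2 (1.83, adjusted p = 0.15), Kcnt2 (0.98, adjusted p = 0.13), Kcnc2 (−3.09, adjusted p = 0.067) and Kcnd3 (2.67, adjusted p = 0.058). Between populations they were Scn1a in FAP against SMP (adjusted p = 0.097) and Kcns1 (adjusted p = 0.13) and Scn11a (adjusted p = 0.051) in Misc against SMP, all in DKO, and Cacng1 in FAP against SMP in WT (adjusted p = 0.062). All 12 are comparisons of DKO with WT or comparisons that involve SMP. Same-numbered libraries did not deviate together there. Their correlations lay between −0.26 and −0.08 for FAP DKO with SMP DKO, and between −0.16 and 0.03 for Misc DKO with Misc WT. The block thus cannot decide these 12 calls, and no conclusion is drawn from their loss. Removing the length trend ended 4 calls, DESeq2's test 5, its size factors 1 and no filter 3. The signs that turned belong to uncalled genes: Kcnma1 in FAP (0.00) was at −0.00 with the block and ranged from −0.10 to 0.10 without single libraries, Kcnj8 from −0.29 to 0.58 in FAP and from −0.97 to 0.43 in SMP, and Cacnb1 in Misc from −0.10 to 0.11. The causes were not tested. SMP rests on 2 libraries a group, and depth limits genes near 1 CPM.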
